A study of Homo sapiens with 112 samples.

Results

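The comparison described here is the difference between 2 cell lines in their response to darolutamide at 22 h, that is, the log2 fold change between 1 nM R1881 plus 2 µM darolutamide and 1 nM R1881 alone in VCaP cells minus the same log2 fold change in LAPC4 cells. A positive difference means that darolutamide raised the gene more, or lowered it less, in VCaP than in LAPC4 cells. It was computed for the 16578 of 58684 listed genes with 10 or more reads in 4 or more libraries of VCaP and also of LAPC4. The series holds 55 libraries of VCaP and 57 of LAPC4, and the contrast rests on 29 of them, namely 5 darolutamide and 9 R1881 libraries of VCaP and 5 darolutamide and 10 R1881 libraries of LAPC4. All of these cells had first spent 2 days without hormone, in 10% serum stripped with charcoal, all then received R1881, and the R1881 groups received the vehicle DMSO in place of the drug. The series also holds cells with DMSO only, a dose of 0.5 µM darolutamide and a time point of 8 h, which are used below where they bear on the same genes. VCaP and LAPC4 are 1 line each, so the difference covers everything in which these lines and their cultures differ, and these factors cannot be told apart. The study's methods name 5 biological replicates per condition, but the labels do not say which libraries came from separate cultures, so the p-values measure only the spread between these libraries.

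The androgen receptor is a transcription factor that, once bound by hormone, enters the nucleus and switches on a set of prostate genes, among them those of the kallikrein proteases. R1881 is a synthetic androgen that activates the receptor, and darolutamide is a drug that competes with androgen for it. In prostate cancer cells the receptor also raises lipid synthesis, protein folding and secretion, and it can either drive or hold back proliferation, depending on the cell and on the strength of the androgen signal. VCaP cells carry a fusion that puts the ERG gene under the promoter of TMPRSS2, whereas LAPC4 cells do not express ERG.

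The 29 libraries held between 15798498 and 24973835 reads on genes. ERG (chr21:38380027-38661780, GRCh38) stood at 395 to 437 CPM (read counts relative to library size, with sizes scaled by TMM) in the 5 VCaP darolutamide libraries and at 0 in the 5 of LAPC4, which matched the labels. All 10 of 10 markers of prostate luminal epithelium had a mean of at least 1 CPM in each of these groups. Their sum at 22 h in VCaP was 10555.5 to 11220 CPM with R1881, 5145 to 5361 CPM with 2 µM darolutamide and 4894 to 5148 CPM with DMSO. In LAPC4 it was 3371 to 3623, 3353 to 3517 and 3339 to 3481 CPM in the same order. Basal markers (6 genes) summed to 0.684 to 5.16 CPM in the VCaP libraries at 22 h with DMSO, R1881 or 2 µM darolutamide and to 72.9 to 196 CPM in those of LAPC4, and all 8 of 8 neuroendocrine markers reached 1 CPM in VCaP but 2 in LAPC4. Leukocyte markers summed to less than 1 CPM in every one of these libraries, with MS4A1 at 0 in all 6 groups. The summed fibroblast markers moved with the treatment in VCaP, at 0.684 to 1.76 CPM with R1881, 5.44 to 6.54 CPM with darolutamide and 30.1 to 34.6 CPM with DMSO. They moved less in LAPC4, at 2.22 to 3.52, 3.98 to 5.58 and 4.64 to 6.18 CPM in the same order. The summed neuroendocrine markers also moved in VCaP, at 259 to 280.0 CPM with R1881, 305 to 326 CPM with darolutamide and 378 to 430.3 CPM with DMSO, and overlapped between R1881 and darolutamide in LAPC4, at 17.6 to 20.9 and 19.3 to 22.6 CPM. Their part in the results was not tested.

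Darolutamide moved far more genes, and moved them further, in VCaP than in LAPC4 cells. With edgeR's quasi-likelihood test and Benjamini-Hochberg adjustment over all 16578 genes, 9772 genes (58.9%) differed between the lines at an adjusted p under 0.05, of which 4744 (28.6%) were lower and 5028 (30.3%) higher in the VCaP effect. The drug changed 11296 genes (68.1%) in VCaP, where 5316 (32.1%) fell and 5980 (36.1%) rose, but 1532 genes (9.24%) in LAPC4, where 760 (4.58%) fell and 772 (4.66%) rose. The median standard error of the log2 fold change was 0.0816 in VCaP and 0.0783 in LAPC4. Both came from 1 joint fit that shares its estimate of the spread, so they do not compare the spread within each line. The median absolute log2 fold change was 0.38 in VCaP and 0.08 in LAPC4. A log2 fold change above 1 in size was reached by 2019 called genes (12.2%) in VCaP and 58 (0.35%) in LAPC4, and 2169 genes (13.1%) passed the test of the difference with a size above 1.

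Over all genes tested, the drug effects of the 2 lines were nearly uncorrelated. Pearson's r of the log2 fold changes was 0.06 and Spearman's rho -0.04 over the 16578 genes. These values describe genes of 1 joint fit, in which the lines share no library. Most of these genes were not called in LAPC4, where the median size of 0.08 was close to the median standard error of 0.0783. Over the 1532 genes called in LAPC4, r was 0.24 and rho 0.15. Of the 58 called there above 1 in size, 38 were called in the same direction in VCaP and 13 in the opposite one. Of the 1306 genes called in both lines, 660 moved in the same direction (318 fell and 342 rose) and 646 moved in opposite directions (294 fell in VCaP and rose in LAPC4, and 352 did the reverse). All 646 of the latter also passed the test of the difference. Both counts moved by over 1.5 times with the processing, from 455 to 1695 genes in the same and from 401 to 1716 in opposite directions over the alternatives, the highest with a GC slope per library and a replicate block. Among the 660 that moved alike, the difference was called for 442, with the larger effect in VCaP for 406 and in LAPC4 for 36. A further 8275 genes were called in VCaP only and in the difference, whereas for 1715 genes called in VCaP only the difference was not called, so these were not shown to differ between lines.

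**Figure D1:**
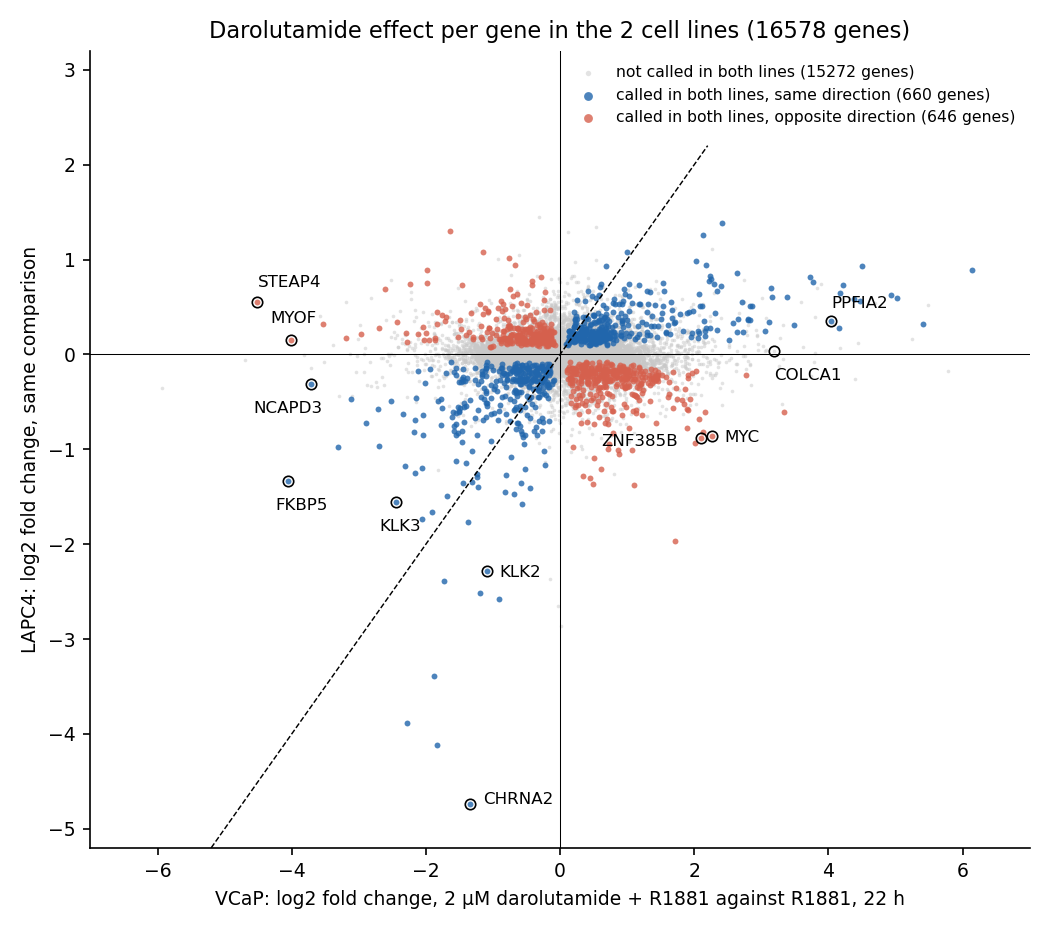
Each point is 1 of 16578 genes, with its log2 fold change between R1881 plus 2 µM darolutamide and R1881 at 22 h in VCaP on the x axis and in LAPC4 on the y axis, and the dashed line marks equal effects. Most genes spread along the x axis and stay near 0 on the y axis, the 660 blue genes moved alike and the 646 red genes in opposite directions, and CHRNA2 and KLK2 lie below the dashed line, with the larger fall in LAPC4.

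The lower end of the difference held genes that darolutamide lowered in VCaP and that had a smaller or an opposite effect in LAPC4. STEAP4 (chr7:88270892-88306894), which codes for a metalloreductase, had the lowest difference among genes above the median expression. It stood at 956 to 1189 CPM (median 1039) in the 9 VCaP libraries with R1881 and at 42.0, 48.2, 46.3, 48.3 and 45.1 CPM in the 5 with darolutamide. In LAPC4 it stood at 12.7 to 17.9 CPM (median 15.0) with R1881 and at 20.2, 23.6, 21.5, 25.5 and 19.8 CPM with darolutamide. The groups did not overlap in either line, and the drug libraries were the low ones in VCaP and the high ones in LAPC4. This was a 22.8-fold fall in VCaP and a 1.47-fold rise in LAPC4, with a difference of -5.07 ± 0.10 (SE, adjusted p = 5.29e-72, edgeR). R1881 alone had moved the gene by 6.97 on the log2 scale in VCaP and by -0.53 in LAPC4, a comparison that shares its R1881 libraries with the drug effect.

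NCAPD3 (chr11:134150113-134225504), a subunit of the condensin II complex that compacts chromosomes, was among the most abundant of these genes. With R1881 it stood at 5448 to 6166 CPM (median 6032) in VCaP, and with darolutamide at 432, 440, 432, 509 and 443 CPM. LAPC4 libraries held 56.9 to 65.5 CPM (median 61.4) with R1881 and 48.3, 49.6, 47.0, 52.5 and 50.4 CPM with darolutamide. Here the drug libraries were the low ones in both lines, but the fall was 13.1-fold in VCaP and 1.24-fold in LAPC4, and the difference was -3.40 ± 0.06 (adjusted p = 1.68e-78, edgeR). TMPRSS2 (chr21:41464300-41531116), a membrane serine protease, showed the same order, with an 8.64-fold fall in VCaP, a 1.38-fold fall in LAPC4 and a difference of -2.65 ± 0.04 (adjusted p = 2.30e-79, edgeR).

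The other genes named at this end were expressed in both lines. MYOF, which codes for myoferlin, a protein of membrane repair and fusion, stood at 28.4 to 35 CPM with R1881 in VCaP and at 1.62 to 2.15 CPM with darolutamide, a 16.1-fold fall. LAPC4 held 157 to 199 CPM of it with R1881 and 186 to 220 CPM with darolutamide, groups that overlapped, and its log2 fold change of 0.15 ± 0.05 there lay near the threshold (adjusted p = 0.047, edgeR) and was called in 14 of 23 alternatives. LIFR, the receptor of leukaemia inhibitory factor, fell 8.07-fold in VCaP, from 1049 to 1328 CPM with R1881 to 138 to 150 CPM with the drug, and stood at 115 to 152 and 136 to 171 CPM in LAPC4. ERRFI1, a feedback inhibitor of the EGF receptor, fell 8.18-fold in VCaP and had a log2 fold change of -0.02 ± 0.05 in LAPC4, where the value of R1881 was also -0.02. SAT1, the enzyme that acetylates spermidine and spermine, fell 9.17-fold in VCaP to 32.9 to 40.4 CPM, below the 50.4 to 60.0 CPM of cells with DMSO only, and had a log2 fold change of 0.18 ± 0.06 in LAPC4, called in 13 of 23 alternatives.

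Genes at the higher end of the difference were for the most part low with R1881 in VCaP and rose with darolutamide. PPFIA2, which codes for a liprin, stood at 11.3 to 14.6 CPM with R1881 in VCaP and at 196, 209, 194, 218 and 228 CPM with the drug, a 16.4-fold rise. In LAPC4 it rose 1.28-fold, from a median of 47.2 CPM to 54.8 to 69.1 CPM, in groups that overlapped. The difference was 3.68 ± 0.08 (adjusted p = 2.77e-66, edgeR). COLCA1 rose 9.16-fold in VCaP, from 42.2 to 52.5 CPM to 400 to 468 CPM, while its LAPC4 libraries lay at 18.4 to 26.3 CPM with R1881 and at 22.2 to 24.9 CPM with the drug and overlapped. LRRN1, a membrane protein with leucine-rich repeats, rose 11.2-fold in VCaP from about 1 CPM (0.272 to 1.28) to 9.25 to 12 CPM, although it remained below the 53.8 to 62.7 CPM of DMSO. In LAPC4 it was the more abundant, at 81.2 to 105 CPM with R1881, and rose 1.24-fold. EDA, a ligand of the tumour necrosis factor family, rose 6.81-fold in VCaP and had a log2 fold change of -0.22 ± 0.06 in LAPC4 (adjusted p = 0.0087, edgeR).

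**Figure D2:**
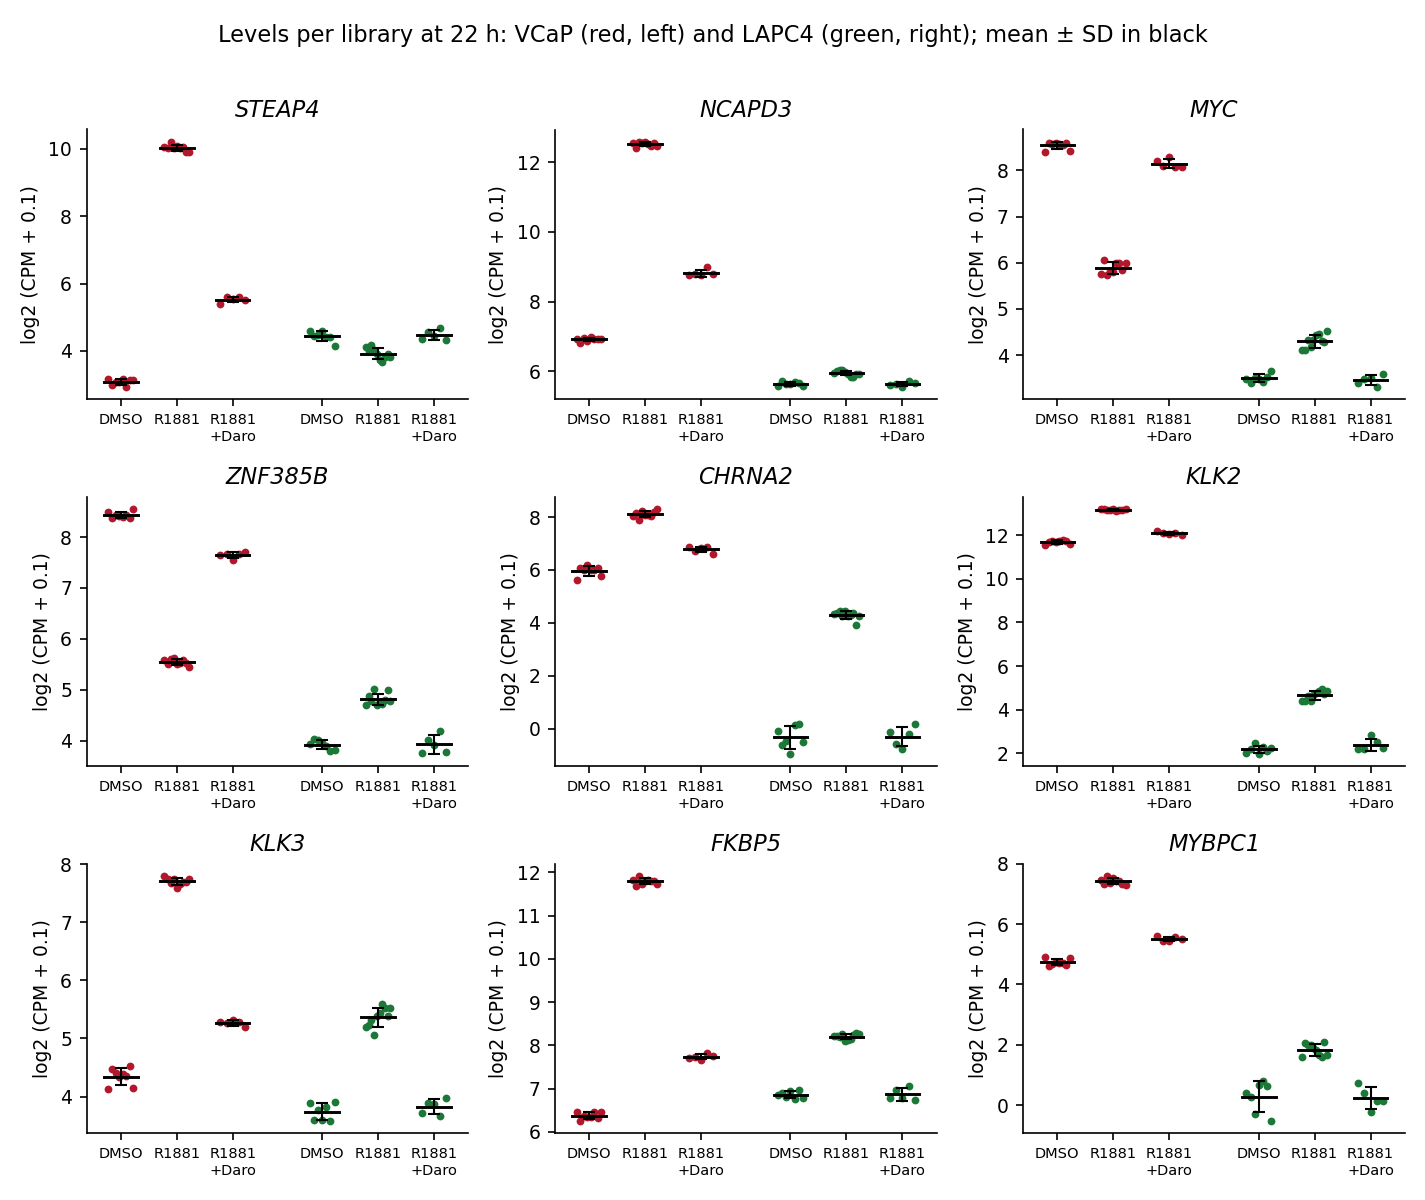
The y axis of each panel gives log2 (CPM + 0.1) of 1 gene in each library at 22 h, for DMSO, R1881 and R1881 plus 2 µM darolutamide in VCaP (red) and LAPC4 (green), with the mean and SD in black. STEAP4, MYC and ZNF385B move in opposite directions with darolutamide in the 2 lines, NCAPD3 moves mainly in VCaP, and CHRNA2 and KLK2 fall further in LAPC4.

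MYC (chr8:127735434-127742951), the transcription factor that drives growth and ribosome synthesis, changed in opposite directions. In VCaP it stood at 53.2 to 66.6 CPM (median 57.6) with R1881 and at 295, 275, 314, 272 and 268 CPM with darolutamide. In LAPC4 it stood at 17.2 to 22.9 CPM (median 19.8) with R1881 and at 10.4, 11.1, 11.2, 9.88 and 11.9 CPM with darolutamide. The drug libraries were thus all above the R1881 libraries in VCaP and all below them in LAPC4, and within each line they came near the libraries with DMSO only, which held 338 to 389 CPM in VCaP and 10.5 to 12.6 CPM in LAPC4. MYC rose 4.80-fold in VCaP and fell 1.81-fold in LAPC4, with a difference of 3.12 ± 0.10 (adjusted p = 6.73e-51, edgeR). R1881 itself had a log2 fold change of -2.65 on MYC in VCaP and of 0.82 in LAPC4.

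ZNF385B, a zinc finger protein, had the same pattern with a smaller spread. It rose 4.30-fold in VCaP, from 43.5 to 49.0 CPM to 188 to 209 CPM, and fell 1.84-fold in LAPC4, from 26.0 to 32.1 CPM to 13.4 to 18.1 CPM (difference 2.98 ± 0.07, adjusted p = 7.55e-66, edgeR). PRUNE2 rose 1.72-fold in VCaP, where it was abundant at 1080 to 1331 CPM with R1881, and fell 1.78-fold in LAPC4, from 5.63 to 8.37 CPM to 2.85 to 4.83 CPM. ACPP and HIST1H2AC shared the pattern of STEAP4, a fall in VCaP and a rise in LAPC4. ACPP, which codes for prostatic acid phosphatase, fell 1.83-fold in VCaP, from 11156 to 13322 CPM to 6145 to 7098 CPM, and rose 1.37-fold in LAPC4, from 19.1 to 25.5 CPM to 27.9 to 35 CPM (difference -1.32 ± 0.07, adjusted p = 7.46e-33, edgeR). HIST1H2AC, a histone H2A gene, fell 2.10-fold in VCaP to 14.2 to 15.5 CPM and rose 1.37-fold in LAPC4 to 63.2 to 66.1 CPM. In none of these 6 genes did the drug and R1881 libraries overlap in either line. Each was called in both lines with the same directions under all 23 alternatives to the analysis. The genes were picked from these same libraries for large opposite effects, so this describes them and is not separate support. The share of all genes tested without overlap is not reported here. HIST1H2AC was the exception in its response to androgen, since R1881 had a negative log2 fold change in both lines, of -0.62 in VCaP and -0.34 in LAPC4.

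A smaller group of genes fell further in LAPC4 than in VCaP, and of the 6 named here all but STEAP1B are on the list of androgen-induced genes. That list covers 58 of the 16578 genes tested. It was written with earlier results of these data known, and the 6 were picked from these libraries, so the overlap is not separate support. LAPC4 had the larger effect, in either direction, for 41 of the 58 genes called there with a log2 fold change above 1 in size. Picking these genes for a large effect in LAPC4 favours that outcome, so it is a description only. Of the same 58 genes, the difference was called for 42, among them FKBP5 and KLK3, which fell further in VCaP. CHRNA2, a subunit of the nicotinic acetylcholine receptor, had the largest difference among the 6 genes named here. In LAPC4 it stood at 14.9 to 21.8 CPM (median 19.7) with R1881 and at 0.814, 0.575, 0.490, 0.764 and 1.04 CPM with darolutamide, which lay within the 0.423 to 1.02 CPM of DMSO but for the highest library. In VCaP it stood at 238 to 318 CPM (median 270) with R1881 and at 115.9, 106.4, 112.7, 116.05 and 97.6 CPM with darolutamide, above the 49.6 to 72.0 CPM of DMSO. The libraries separated in both lines, by 26.6-fold in LAPC4 and 2.53-fold in VCaP, and the difference was 3.40 ± 0.19 (adjusted p = 1.60e-31, edgeR).

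KLK2 (chr19:50861568-50880567), a kallikrein protease secreted by the prostate, stood at 20.9 to 31.1 CPM with R1881 in LAPC4 and at 4.54, 4.44, 7, 5.58 and 4.57 CPM with darolutamide, a 4.86-fold fall. In VCaP it was among the most abundant transcripts, at 8969 to 9559 CPM with R1881 and at 4641, 4388, 4218, 4475 and 4148 CPM with the drug, a 2.13-fold fall (difference 1.19 ± 0.11, adjusted p = 4.21e-18, edgeR). The VCaP libraries with darolutamide stayed above the 3007 to 3513 CPM of DMSO, whereas those of LAPC4 lay next to its 3.85 to 5.46 CPM. C1orf116, a gene named for its regulation by androgen, fell 2.97-fold in LAPC4 to 153 to 166 CPM and 1.48-fold in VCaP to 682 to 741 CPM (difference 1.01 ± 0.05). PMEPA1, an inhibitor of TGF-β signalling, fell 2.02-fold in LAPC4 and 1.18-fold in VCaP, where the drug libraries at 1354 to 1410 CPM lay far above the 664 to 709 CPM of DMSO. RAB3B, a GTPase of vesicle release, fell 2.24-fold in LAPC4 and 1.16-fold in VCaP. STEAP1B fell 1.77-fold in LAPC4 and had a log2 fold change of -0.02 ± 0.06 in VCaP, with overlapping libraries (difference 0.81 ± 0.11, adjusted p = 8.00e-11, edgeR).

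Some genes moved in the same direction in both lines without a called difference. Among the 53 genes called in the same direction in both lines with effects above 0.5 in size and no called difference, MYBPC1, a myosin-binding protein, fell 3.76-fold in VCaP and 3.16-fold in LAPC4. Its levels were 157 to 195 CPM with R1881 and 43.5 to 48.3 CPM with darolutamide in VCaP, and 2.94 to 4.14 and 0.758 to 1.57 CPM in LAPC4, with no overlap in either line. The difference was -0.25, with a 95% interval from -0.63 to 0.13. KLK4, a kallikrein protease, fell 2.58-fold in VCaP and 3.39-fold in LAPC4 (difference 0.39, interval 0.01 to 0.78, adjusted p = 0.073, edgeR), and KLK15 had the low levels of 6.43 to 8.08 CPM in VCaP and 0.318 to 1.21 CPM in LAPC4 with R1881 and a difference of -0.20 (interval -0.94 to 0.55). MOGAT2 had a difference of -0.91 (interval -1.71 to -0.12, adjusted p = 0.0543, edgeR) and BMP2, the gene of this group that rose, one of 0.88 (interval -0.14 to 1.89). In CTD-2224J9.8, at under 1 CPM in LAPC4, the interval ran from -1.02 to 0.38. The intervals of the low genes reach past 1 in size on the log2 scale, and a p above the threshold does not show equal effects.

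The study's text names KLK2, KLK3, TMPRSS2 and FKBP5 at super-enhancers, and all 4 fell in both lines, with the difference called in each. KLK3 (chr19:50854915-50860764), the gene of prostate-specific antigen, stood at 194 to 223 CPM with R1881 and at 38.8, 38.4, 39.6, 38.9 and 36.4 CPM with darolutamide in VCaP, a log2 fold change of -2.44. In LAPC4 it stood at 33.4 to 48.1 CPM with R1881 and at 13.0, 14.7, 14.5, 12.6 and 15.7 CPM with darolutamide, a log2 fold change of -1.55, so that KLK3 fell further in VCaP (difference -0.89 ± 0.11, adjusted p = 2.75e-12, edgeR) while its neighbour KLK2 fell further in LAPC4. Kallikrein genes share long stretches of sequence, and how the authors' counting split reads between them is not given in the sources used here. FKBP5, a co-chaperone of steroid receptors, fell from 3313 to 3884 CPM to 204 to 225 CPM in VCaP and from 274 to 313 CPM to 106 to 133 CPM in LAPC4, with a difference of -2.73. IGF1R, the receptor of insulin-like growth factor 1, had log2 fold changes of -1.27 in VCaP and -0.27 in LAPC4. FOXA1, a pioneer factor that opens chromatin for the androgen receptor, fell slightly in VCaP (-0.29) and rose slightly in LAPC4 (0.19), with a difference of -0.48. ACPT did not pass the read minimum and lay at 0 in all LAPC4 libraries of the 22 h groups with DMSO, R1881 or 2 µM darolutamide.

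Over the gene list of androgen-induced genes, 52 of 58 tested members fell in VCaP and 5 rose (background 32.1% and 36.1%), and 36 fell and 2 rose in LAPC4 (background 4.58% and 4.66%), with 4 that rose without LAPC4 darolutamide replicate 5. The difference was lower for 37 and higher for 15 members (background 28.6% and 30.3%), with a median of -0.84 against 0.03 over all genes tested. The list average, the mean log2 CPM over its members, was 8.13 to 8.23 with R1881, 6.80 to 6.85 with darolutamide and 6.18 to 6.24 with DMSO in VCaP. In LAPC4 it was 5.89 to 5.99 with R1881, 5.25 to 5.35 with darolutamide and 5.22 to 5.31 with DMSO, so that the drug libraries overlapped with DMSO in LAPC4 and lay above it in VCaP. Besides those named above, SLC38A4, an amino acid transporter, and ZBTB16, a transcriptional repressor, had log2 fold changes of -3.39 and -2.57 in LAPC4 and of -1.88 and -0.91 in VCaP. ACSL3, NDRG1 and KLF9 fell by 2.67, 2.01 and 1.32 in VCaP and had LAPC4 values of -0.04, 0.01 and 0.01.

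Of 24 tested androgen-repressed genes, 15 rose and 5 fell in VCaP and 8 rose and 8 fell in LAPC4 (background 36.1% and 32.1% in VCaP, 4.66% and 4.58% in LAPC4), and the difference was higher for 16 and lower for 5 (background 30.3% and 28.6%), with a median of 1.38. UGT2B15 and UGT2B17, enzymes that attach glucuronic acid to androgens and so inactivate them, rose by 4.93 and 4.38 on the log2 scale in VCaP and by 0.62 and 0.58 in LAPC4. Their sequences are nearly alike, and reads may have been split between them or lost. MET, the receptor of hepatocyte growth factor, rose by 4.22 and 0.73, and IGFBP3, a binding protein of insulin-like growth factors, rose from 1.38 to 2.94 CPM to 42.1 to 58.7 CPM in VCaP and lay at 5.20 to 6.97 and 6.15 to 6.81 CPM in LAPC4. DDC, the enzyme that makes dopamine and serotonin, and TMEFF2, a membrane protein of prostate and brain, rose by 1.72 and 1.85 in VCaP and fell by 1.96 and 0.52 in LAPC4. LRIG1, an inhibitor of receptor tyrosine kinases that this list holds as repressed, was raised by R1881 in both lines (2.24 in VCaP and 0.58 in LAPC4) and fell with darolutamide in both. The list average in LAPC4 did not separate the treatments, at 4.28 to 4.42 with R1881 and 4.17 to 4.43 with darolutamide.

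**Figure D3:**
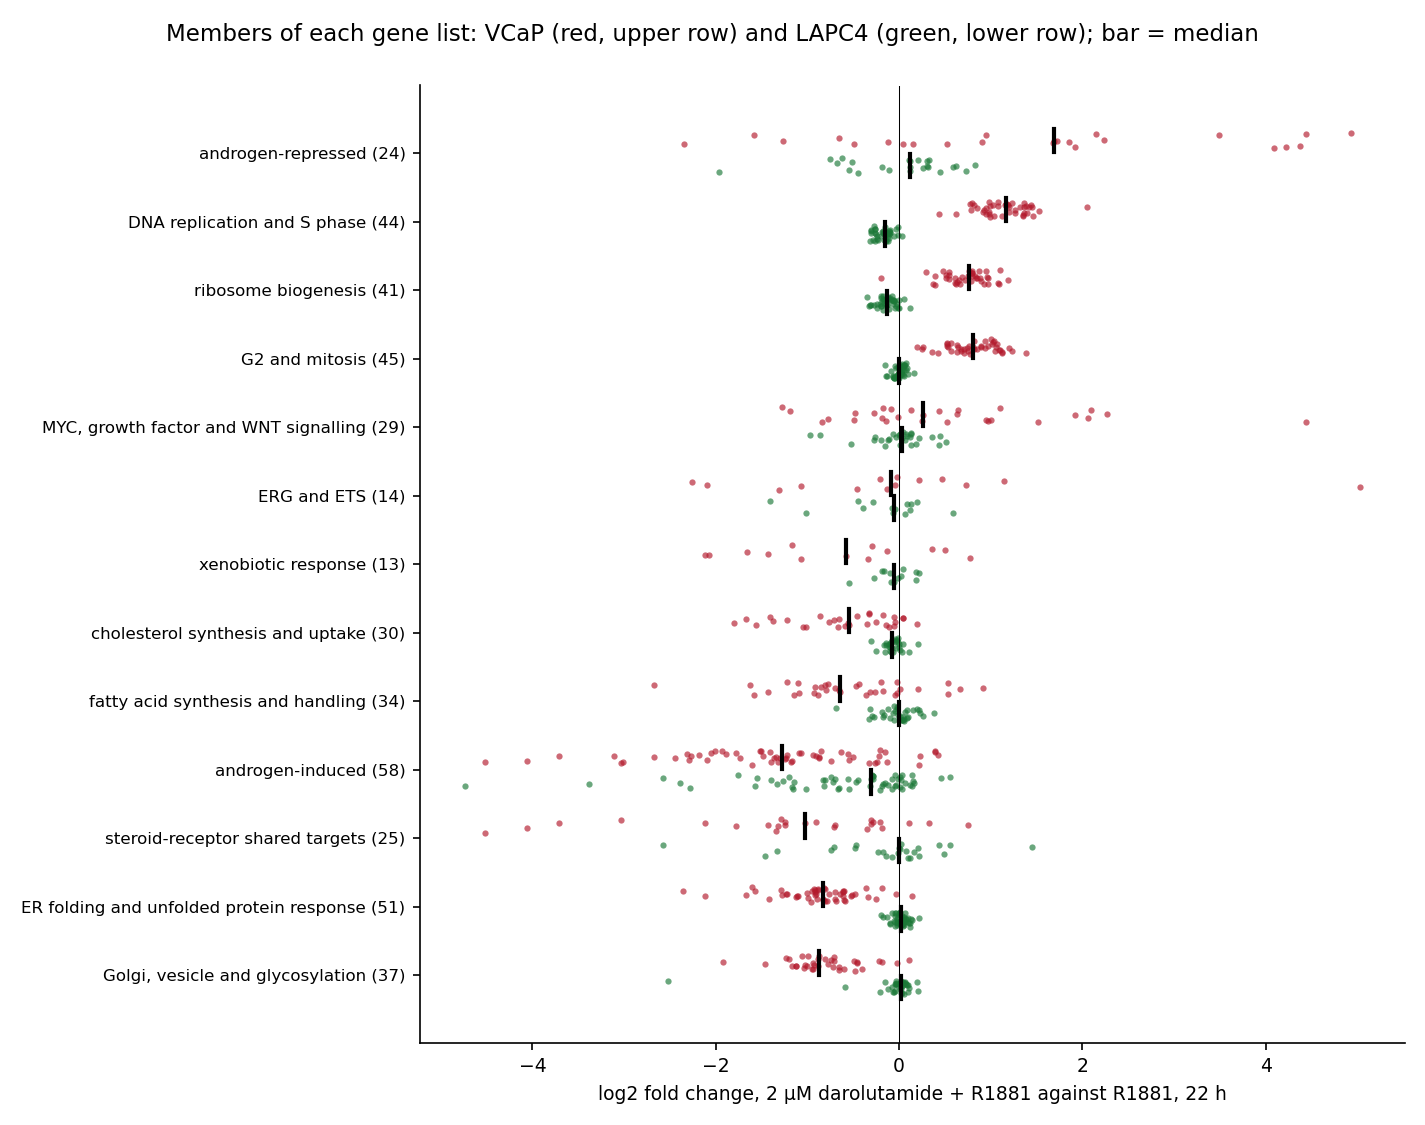
Each point is 1 gene of a list, with its log2 fold change between R1881 plus 2 µM darolutamide and R1881 at 22 h on the x axis, in red for VCaP and in green for LAPC4, and the bars mark list medians. The VCaP medians run from -1.27 for androgen-induced genes to 1.69 for androgen-repressed genes, whereas the LAPC4 medians lie between -0.31 and 0.12.

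The genes of DNA replication rose in VCaP without exception, and 22 of them fell in LAPC4. All 44 members of the list rose in VCaP (background 36.1%) and all 44 were higher in the difference (background 30.3%), with a median difference of 1.30. No member rose in LAPC4 (background 4.58% and 4.66%), with a median log2 fold change of -0.15 against 0.01 over all genes tested, and the number that fell ranged from 12 to 35 over the alternatives. The LAPC4 falls were thus small beside the VCaP rises, of which the median was 1.16. MCM4, a subunit of the helicase that unwinds DNA, stood at 199 to 224 CPM with R1881 and 534 to 580 CPM with darolutamide in VCaP, and at 174 to 198 and 153 to 165 CPM in LAPC4. The libraries separated in both lines, upwards in VCaP and downwards in LAPC4, with a difference of 1.69 ± 0.04 (adjusted p = 5.48e-59, edgeR). PCNA, the clamp that holds the replicative polymerases on DNA, rose 2.26-fold in VCaP and fell 1.10-fold in LAPC4. TYMS, which makes thymidylate, rose 2.89-fold in VCaP and had a log2 fold change of -0.12 in LAPC4 (adjusted p = 0.078, edgeR). The largest difference of the list was that of PRIM1, the primase subunit, at 2.10, and the smallest that of SLBP, which binds histone messenger RNA, at 0.54.

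The level of these genes with the drug also passed that of DMSO in VCaP. These are RNA levels and do not measure growth. The study reported decreased proliferation with darolutamide plus R1881 against R1881 alone. The list average was 4.69 to 4.79 with DMSO, 4.91 to 5.02 with R1881 and 6.07 to 6.14 with R1881 plus darolutamide, and no groups overlapped. In LAPC4 it was 5.04 to 5.12 with DMSO, 5.24 to 5.35 with R1881 and 5.07 to 5.15 with R1881 plus darolutamide, so that there R1881 libraries were the highest and the drug libraries overlapped with DMSO. TMEFF2 of the androgen-repressed list also stood higher with the drug (241 to 250 CPM) than with DMSO (111 to 132 CPM) in VCaP, whereas MYC did not.

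**Figure D4:**
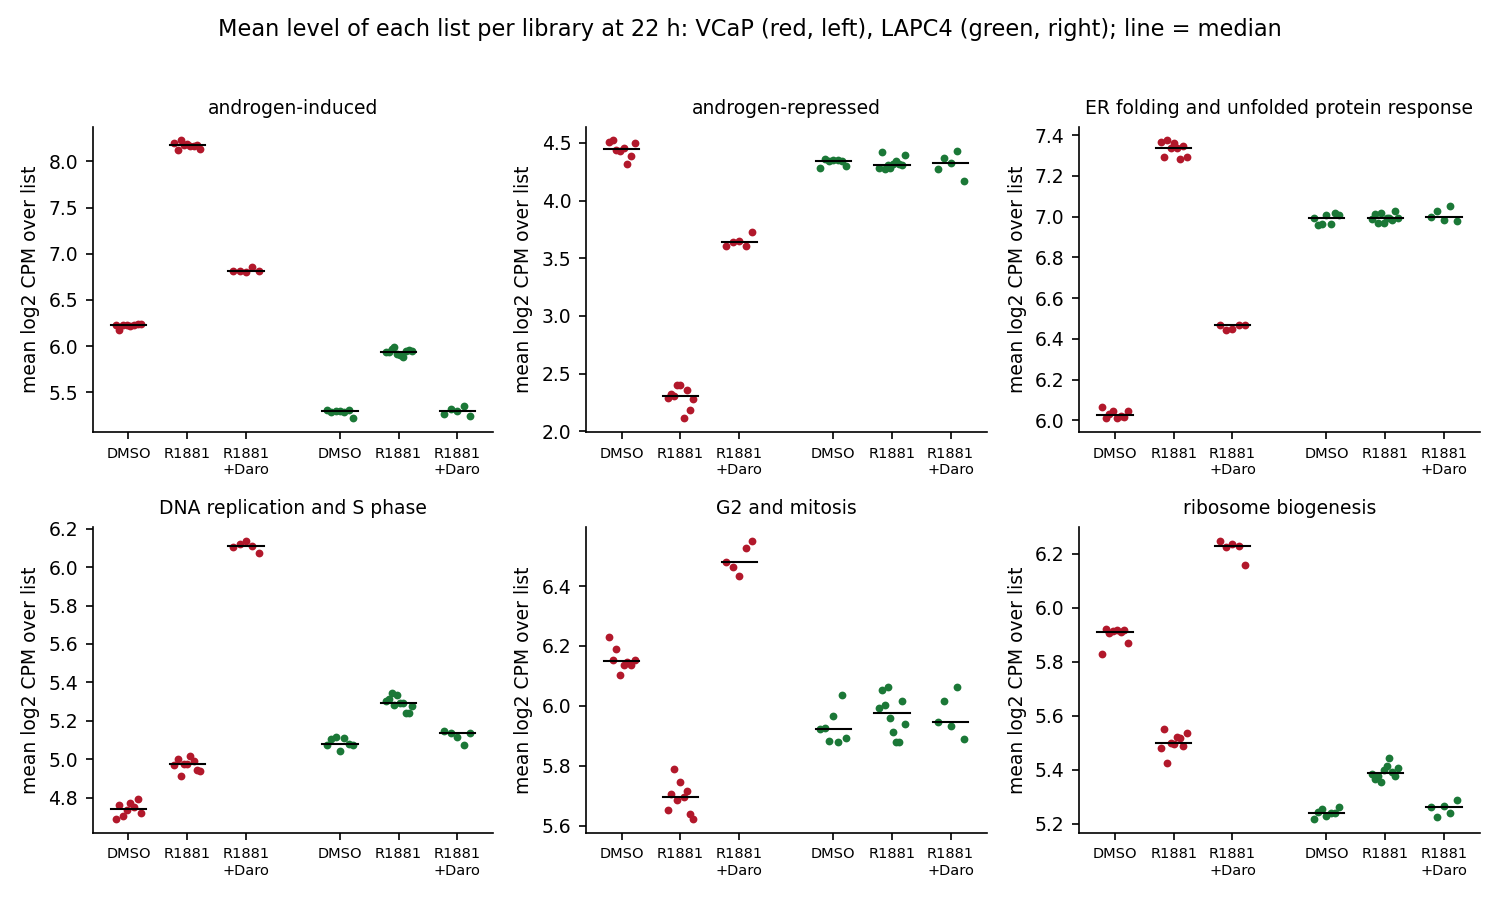
The y axis gives the mean log2 CPM over the members of 6 gene lists in each library at 22 h, in VCaP (red) and LAPC4 (green), with the median of each group as a line. In VCaP, darolutamide brings the androgen-induced, androgen-repressed and ER averages part of the way from R1881 towards DMSO, and the DNA replication, mitosis and ribosome averages above both.

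E2F factors switch on replication genes at the entry into S phase, and their sites have the core TTTGGCGC or TTTCCCGC, neither of which contains the other. These letters were searched on both strands of the RefSeq promoter windows (GRCh38.p14, 250 bases before to 50 after each start), of which 39 of the 44 replication genes had at least 1. A match stood in 20 of the list's 49 windows (40.8%), against 797 of all 35116 windows (2.27%) and 3.41% of the windows of all genes tested. The stretches below show how the match lies in 6 of 15 replication genes with a match before the start site. Not every gene of the list was considered for printing. They are shown with up to 25 bases on each side, 5′ to 3′ on the gene's strand. Capitals mark the match, which reads GCGGGAAA where TTTCCCGC lies on the other strand.
DTL, chr1:212035715-212035747, plus strand: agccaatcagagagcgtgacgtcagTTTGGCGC
CDT1, chr16:88803729-88803786, plus strand: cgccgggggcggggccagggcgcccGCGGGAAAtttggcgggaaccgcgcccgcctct
GINS2, chr16:85688955-85689010, minus strand: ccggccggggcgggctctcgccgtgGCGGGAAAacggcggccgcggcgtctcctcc
TYMS, chr18:657589-657646, plus strand: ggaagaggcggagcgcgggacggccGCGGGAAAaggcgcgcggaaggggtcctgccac
LIG1, chr19:48170426-48170483, minus strand: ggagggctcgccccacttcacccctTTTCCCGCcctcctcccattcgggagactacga
UHRF1, chr19:4909462-4909500, plus strand: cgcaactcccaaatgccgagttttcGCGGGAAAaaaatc
The match began 8 bases before the start in DTL, which marks CDT1 for degradation, 35 in CDT1, which licenses origins, 31 in GINS2, a subunit of the replicative helicase, 39 in TYMS, 114 in LIG1, the DNA ligase of replication, and 14 in UHRF1, which maintains DNA methylation. These 6 genes had log2 fold changes of 1.46, 1.45, 1.37, 1.53, 1.37 and 1.20 in VCaP and of -0.28, -0.26, -0.30, -0.12, -0.15 and -0.32 in LAPC4, in the order given, of which the LAPC4 values of DTL, GINS2 and UHRF1 passed the test. A match is a description of the sequence and does not show binding.

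The half-site of the androgen receptor, AGAACA, was searched in the same windows. It stood in 10 of the 83 windows of the androgen-induced genes (12.05%), against 14.8% of all windows and 9.62% of those of all genes tested, which does not set the list apart in this near window. KLK3 holds one that begins 170 bases before its start (match in capitals).
KLK3, chr19:50854720-50854775, plus strand: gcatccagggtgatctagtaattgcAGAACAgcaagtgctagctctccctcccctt

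Genes of G2 and mitosis rose in VCaP, and few were called in LAPC4. In VCaP 44 of 45 members rose and 0 fell, in LAPC4 0 rose and 1 fell (NCAPH, a condensin I subunit, at -0.15), against a background of 36.1% and 32.1% in VCaP and 4.66% and 4.58% in LAPC4, and 44 were higher in the difference (background 30.3%), with a median of 0.78. The LAPC4 counts ranged from 0 to 13 that fell and 0 to 2 that rose over the alternatives, and leaving out LAPC4 darolutamide replicate 2, 3 or 5 gave 2, 0 and 0 that fell, with 2 that rose without replicate 5. The mitosis list average in VCaP was 6.10 to 6.23 with DMSO, 5.62 to 5.79 with R1881 and 6.43 to 6.55 with darolutamide, again with the drug libraries above both others, whereas all 3 groups overlapped in LAPC4 between 5.88 and 6.06. MAD2L1 and BUB1B, of the spindle checkpoint, rose by 1.39 and 1.24 in VCaP, with LAPC4 values of -0.14 and -0.02. MKI67, the proliferation marker Ki-67, rose by 0.89, with a LAPC4 value of -0.03.

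Genes of ribosome biogenesis rose in VCaP, and some fell in LAPC4. In VCaP 40 of 41 members rose and 1 fell, in LAPC4 0 rose and 13 fell (9 to 24 over the alternatives, with at most 1 that rose, as without LAPC4 darolutamide replicate 5), against a background of 36.1% and 32.1% in VCaP and 4.66% and 4.58% in LAPC4, and the difference was higher for 40 (background 30.3%), with a median of 0.86. NOP56, a core protein of box C/D snoRNPs, stood at 160 to 184 CPM with R1881 and 320 to 348 CPM with darolutamide in VCaP, and at 98.9 to 111 and 86.7 to 95.5 CPM in LAPC4. NCL, which codes for nucleolin, stood at 529 to 594 and 1017 to 1077 CPM in VCaP and at a median of 554 and of 508 CPM in LAPC4. NOP56 libraries separated in both lines and NCL libraries in VCaP only, and the fall of NCL in LAPC4 was called in 16 of 23 alternatives. The 1 gene of the list that fell in VCaP was NOP10, at -0.19.

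Genes of the endoplasmic reticulum and its unfolded protein response fell in VCaP, and few were called in LAPC4. From a ranked gene set test, the study reported a negative effect of darolutamide on this response in LAPC4. The counts here use another list and calls of single genes, so they do not test that result. In VCaP 48 of 51 members fell and 1 rose, and in LAPC4 2 fell and 3 rose (background 32.1% and 36.1% in VCaP, 4.58% and 4.66% in LAPC4), with medians of -0.83 and 0.02. The LAPC4 counts, near the background, ranged from 0 to 8 that fell and 1 to 9 that rose over the alternatives, with 1 that fell without darolutamide replicate 1 or 5. The difference was lower for 47 and higher for 1 (ASNS, asparagine synthetase, at 0.19; background 28.6% and 30.3%), with a median of -0.90. ERN1, the sensor kinase IRE1, stood at 113 to 126 CPM with R1881 and 25.3 to 29.2 CPM with darolutamide in VCaP, and at 27.1 to 33.0 and 25.9 to 28.6 CPM in LAPC4. Its libraries separated in VCaP and overlapped in LAPC4. HERPUD1, of ER-associated degradation, fell from 200 to 229 CPM to 73.5 to 85.1 CPM in VCaP and lay at 51.6 to 61.7 and 52.7 to 61.7 CPM in LAPC4. HSPA5, the main ER chaperone, and XBP1, a transcription factor of the response, fell by 0.79 and 0.89 in VCaP and rose by 0.11 and 0.14 in LAPC4. The ranges of the ER list average overlapped between all 3 treatments in LAPC4, at 6.96 to 7.02, 6.97 to 7.03 and 6.98 to 7.05, whereas VCaP held 6.01 to 6.06 with DMSO, 7.29 to 7.37 with R1881 and 6.44 to 6.47 with darolutamide.

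The secretory pathway beyond the ER moved with it. Of 37 genes of Golgi, vesicles and glycosylation, 35 fell and 0 rose in VCaP, 4 fell and 2 rose in LAPC4 (background 32.1% and 36.1% in VCaP, 4.58% and 4.66% in LAPC4), and the difference was lower for 32 and higher for 2 (background 28.6% and 30.3%), with a median of -0.90. In LAPC4 3 to 10 fell and 1 to 7 rose over the alternatives, with 4 that rose without darolutamide replicate 5. SEC24D, a coat protein of vesicles that leave the ER, fell by 1.92 in VCaP, with a LAPC4 value of -0.03, and COPG1, a coat protein of vesicles that return to it, by 1.47, with a LAPC4 value of 0.01. The 2 exceptions were enzymes that build O-linked sugars. ST6GALNAC1 fell by 1.20 in VCaP and by 2.52 in LAPC4, and GCNT1 fell by 0.59 in LAPC4, with a VCaP value of -0.02.

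Lipid genes fell in VCaP in part of each list. Of 30 genes of cholesterol synthesis and uptake, 22 fell and 0 rose in VCaP, 3 fell and 1 rose in LAPC4 (background 32.1% and 36.1% in VCaP, 4.58% and 4.66% in LAPC4), and the difference was lower for 18 and higher for 1 (SQLE, squalene epoxidase, at 0.14; background 28.6% and 30.3%), with a median of -0.52. The LAPC4 falls ranged from 1 to 10 over the alternatives, with 1 without darolutamide replicate 1 or 3, and the rise was absent without replicate 2 or 4. INSIG1, which retains the SREBP complex in the ER, stood at 765 to 891 CPM with R1881 and 269 to 290 CPM with darolutamide in VCaP, and at 514 to 580 and 513 to 574 CPM in LAPC4. IDI1, an isomerase of the pathway, fell by 1.67 in VCaP. Of 34 genes of fatty acid synthesis and handling, 24 fell and 5 rose in VCaP, 5 fell and 3 rose in LAPC4, and the difference was lower for 22 and higher for 4, with a median of -0.54. Without LAPC4 darolutamide replicate 4, 1 member rose in LAPC4. ACSL3, which activates long-chain fatty acids, fell from 4678 to 5844 CPM to 774 to 863 CPM in VCaP and lay at 312 to 376 and 302 to 369 CPM in LAPC4. FADS2, a desaturase, and SCD, which makes monounsaturated fatty acids, fell by 1.63 and 1.09 in VCaP, with LAPC4 values of 0.02 and -0.02. The 4 genes higher in the difference, DECR1, ACAA2, EHHADH and HADH, are enzymes of fatty acid oxidation and rose by 0.54, 0.53, 0.66 and 0.92 in VCaP.

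Targets shared by steroid receptors fell for the most part in VCaP, whereas other lists were mixed. The background was 32.1% fallen and 36.1% risen in VCaP, 4.58% and 4.66% in LAPC4, and 28.6% lower and 30.3% higher in the difference. Of 25 targets shared by steroid receptors, 20 fell and 1 rose in VCaP and 7 fell and 3 rose in LAPC4, and the difference was lower for 19 and higher for 2, with a median of -0.88. Without LAPC4 darolutamide replicate 5, 5 rose there. SCNN1G, a subunit of the epithelial sodium channel, rose by 1.45 in LAPC4, with a VCaP value of -0.31. Of 29 genes of MYC, growth factor and WNT signalling, 7 fell and 17 rose in VCaP, 6 fell and 4 rose in LAPC4, and the difference was lower for 5 and higher for 15 (median 0.36). MXI1, an antagonist of MYC, rose together with it in VCaP, by 2.06, with a LAPC4 value of 0.03. Of 13 xenobiotic response genes, 10 fell and 3 rose in VCaP and 1 fell and 1 rose in LAPC4, with 9 lower and 3 higher in the difference (median -0.52), and HMOX1, heme oxygenase 1, fell by 2.08 in VCaP, with a LAPC4 value of -0.05. The LAPC4 counts of this list rest on single genes and moved between 1 and 5 that fell and 0 and 3 that rose over the alternatives, with 2 that fell without darolutamide replicate 4 or 5 and 0 that rose without replicate 2 or 4. Of 14 ERG and ETS genes, 5 were lower and 6 higher in the difference (median 0.05), and ETS1, an ETS factor, fell by 1.41 in LAPC4 and by 0.45 in VCaP.

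The same contrast at 8 h rests on other libraries. There 6611 genes (39.9%) were called, 3038 (18.3%) lower and 3573 (21.6%) higher. Of the 9772 genes called at 22 h, 7509 (76.8%) had a difference of the same sign at 8 h, against 56.2% of the genes not called at 22 h. Called at both times were 5032 genes, 4321 of them in the same direction, which is 44.2% of the calls at 22 h and 65.4% of those at 8 h. MYOF and ERRFI1 had differences of -4.24 and -4.03 at 8 h, as large as those of -4.16 and -3.02 at 22 h, while those of STEAP4 and NCAPD3 were -1.82 and -2.16 at 8 h. MYC and ZNF385B differed by 2.10 and 1.61 at 8 h, with opposite signs in the 2 lines (1.68 in VCaP and -0.42 in LAPC4 for MYC, and 1.13 and -0.48 for ZNF385B). ACPP had a difference of 0.01 at 8 h (adjusted p = 0.9, edgeR), and that of HIST1H2AC was 0.29, of the other sign than at 22 h.

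By list, the mitosis genes had a median of the other sign at 8 h, and the replication genes a smaller one. Of the 44 replication genes 16 were higher and 6 lower in the difference at 8 h (background 21.6% and 18.3%), with a median of 0.15 against 1.30 at 22 h, and of the 45 mitosis genes 3 were higher and 13 lower, with a median of -0.10. PCNA had a difference of 0.14 and MCM4 of 0.34. By contrast 33 of 41 ribosome genes were higher and 0 lower at 8 h (median 0.40), and 42 of 51 ER genes were lower and 1 higher (median -0.60). The 8 h and 22 h values of each list are set side by side, and the change between times was not tested.

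**Figure D5:**
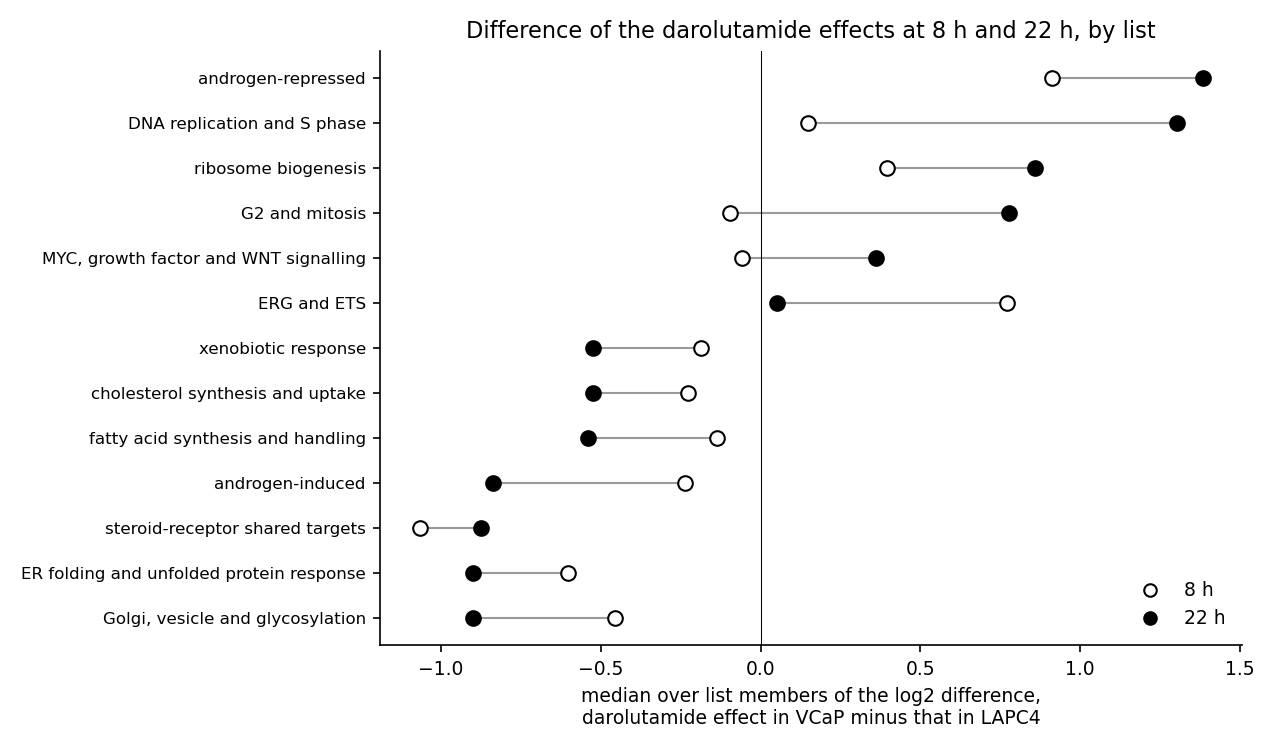
The x axis gives the median over the members of each list of the log2 difference, darolutamide effect in VCaP minus that in LAPC4, at 8 h (open) and 22 h (filled). The replication and mitosis medians move from 0.15 and -0.10 at 8 h to 1.30 and 0.78 at 22 h, while the ER median is negative at both times.

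With 0.5 µM darolutamide at 22 h, 7539 genes (45.5%) were called in the difference. This contrast shares its R1881 libraries with that of 2 µM, so its values are only set beside it. The difference was -2.07 for STEAP4, -1.63 for NCAPD3, -1.31 for TMPRSS2, 1.99 for PPFIA2 and 2.33 for MYC at 0.5 µM, each smaller in size than at 2 µM. For MCM4, PCNA and TYMS it was 1.58, 1.27 and 1.57 at 0.5 µM against 1.69, 1.32 and 1.65 at 2 µM. KLK2 had a difference of 1.34 at 0.5 µM and 1.19 at 2 µM, with log2 fold changes at the lower dose of -0.61 in VCaP and -1.95 in LAPC4.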

How the data were processed

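Poly(A) RNA of VCaP and LAPC4 cells was sequenced, and the authors mapped the reads with STAR (GRCh38) and deposited 1 table of read counts per gene from featureCounts, not normalized. The submitters' processing notes also name bcl2fastq 2.17, Subread and DESeq2. Their other versions, annotation, strand setting and the handling of multiply aligned reads are not given in the sources used here, so counts of overlapping, antisense or near-identical genes are uncertain. Groups, doses and replicate numbers came from the sample labels, and all sample columns were used.

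The counts were scaled by TMM, and the 16 groups were fitted together in edgeR 4.0.16 (R 4.3.3) with glmQLFit and glmQLFTest, which then share 1 estimate of the spread. The difference is an interaction contrast. Genes were called at a Benjamini-Hochberg adjusted p under 0.05, over the 16578 genes that reached 10 reads in 4 libraries of both lines, and the SE was obtained from the log2 fold change and its F statistic. Intervals are at 95%. Log2 CPM used a prior count of 2. The procedure was tested on simulated data.

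The comparison, the gene lists and the rule for named genes were chosen with earlier results of these data known, and the lists came from general knowledge. The rule takes, above the median expression, the 6 lowest and 6 highest differences, 3 opposite effects of each kind, and the 6 largest differences with the larger effect in LAPC4. It adds the 6 largest shared effects without a called difference, 4 members per list by adjusted p, and 11 fixed genes, of which the study's text names KLK2, KLK3, TMPRSS2 and FKBP5 at super-enhancers and the others are ACPP, ACPT, ERG, FOXA1, IGF1R, NCAPD3 and PMEPA1. Other genes, given as list members or extremes, were chosen after their values were seen. Some list members are counted but not reported here by name. Positions are those of GENCODE 44 on GRCh38. Within each of the 4 groups compared at 22 h, every pair of libraries differed beyond sampling noise (mean chi-square per gene of at least 1.78), so none was counted as a duplicate.

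Alternatives were DESeq2 1.42.0, RLE factors or total counts in place of TMM, no filter, filterByExpr, a fit of the 4 groups only, control replicates 1 to 5 or 6 and above, limma 3.58.1 with voom weights, a GC slope per library, a replicate block with and without that slope, and the omission of each darolutamide replicate.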

Additional observations from a re-analysis of the deposited data

Results flagged for a closer look

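The number of genes whose darolutamide effect differed between VCaP and LAPC4 at 22 h was 9772 in the test of the difference itself. Among the genes named, the difference separated opposite effects in STEAP4 (-5.07), HIST1H2AC (-1.53) and ACPP (-1.32), which fell in VCaP and rose in LAPC4, and in MYC (3.12), ZNF385B (2.98) and PRUNE2 (1.61), which did the reverse.

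In 132 groups of 5 to 10 libraries, over the 34 genes named by size or from a fixed set, 6 had 1 library that stood apart by Dixon's criterion, which chance alone meets in about 1 of 20 groups. With darolutamide in VCaP, 1 library held 509 CPM of NCAPD3, above the next at 443, and 1 held 381 CPM of RAB3B, above the next at 359. With R1881 in VCaP, 1 library held 470 CPM of RAB3B (next 427), 1 held 0.272 CPM of LRRN1 (next 0.797) and 1 held 0.153 CPM of BMP2 (next 0.0684). With R1881 in LAPC4, 1 library held 14.9 CPM of CHRNA2 (next 19.0). None of these libraries reached the range of the other treatment in its line.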

How the results depend on the processing

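The number of genes called in the difference, 9772, lay between 8756 and 11242 over all alternatives, and without each darolutamide replicate in turn between 9509 and 9679. The same omissions gave 2149 to 2191 genes above 1 in size, 10904 to 11334 called in VCaP, 1197 to 1608 in LAPC4, and 489 to 666 opposite and 536 to 675 like effects. A GC slope per library raised the calls in LAPC4 to 3308, the like effects to 1284 and the opposite effects to 1588. Control replicates 6 and above alone gave 401 opposite effects. The cause of these moves was not tested. Total counts moved the median difference of all genes from 0.03 to 0.11 and the share of higher calls from 51.5% to 59.7%. With filterByExpr, the 4 groups only, or replicates 1 to 5 of these groups with or without the block (also with the GC slope), that share was 45.0% to 47.5% and the median -0.05 to -0.02. Every list kept its count of members called in the difference, in its main direction, within 1.5 times. Counts called in LAPC4 moved further for some lists, as from 12 to 35 for the replication genes that fell. None of the 75 tested named genes reversed, and 72 kept their call under every alternative, while MOGAT2, BMP2 and KLK4 became called in some. MYOF and SAT1 lost their small LAPC4 rise in 9 and 10 of 23 alternatives.

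Deviations of same-numbered libraries correlated with r from -0.49 to 0.19 over 5 numbers in VCaP and from -0.07 to 0.48 in LAPC4, where 3 of 5 exceeded 0.1. As not every pair did so, the numbers were not taken to pair the samples, although a partial link in LAPC4 was not tested. With the replicate block over numbers 1 to 5, 9090 genes were called in the difference, 10747 in VCaP and 1478 in LAPC4, with 550 opposite and 682 like effects. The same libraries without the block, a fit added after seeing the data, gave 8856 in the difference. The block with the GC slope gave 4015 calls in LAPC4, 1695 like and 1716 opposite effects.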
